A study of Mus musculus with 48 samples.

Results

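The hippocampal subfield marker genes are 9 genes, named for the division of the hippocampus in which their expression is concentrated, and they are described here across the 6 groups and in each library as a check on dissection. They were chosen by symbol, as the rows of the count table that carry the names Prox1, Dsp and C1ql2 (dentate gyrus), Wfs1 and Fibcd1 (CA1), Amigo2 and Rgs14 (CA2), and Bok and Iyd (CA3). Earlier results of these data were known when they were chosen. All 9 were found, 1 row each, among 48440 genes. RNA of the hippocampus of adult female C57BL/6 offspring, aged 3 months, was sequenced in 48 libraries of 1 animal each. Pregnant dams were restrained 3 times a day between embryonic days 13 and 17, and the prenatally stressed (PS) offspring were divided by their performance in a social test, SA standing for socially affected and SU for unaffected animals. Control offspring (C) came from dams without that stress. According to the paper, the offspring went through behavioural tests and a session of restraint with blood sampling before tissue was taken. Libraries labelled 5-Htt+/+, with both copies of the serotonin transporter gene, comprised 8 C, 8 SA and 8 SU animals, and libraries labelled 5-Htt+/-, carrying 1 disrupted copy in every cell of the body, comprised 7 C, 8 SA and 9 SU animals. The entire hippocampus of both sides was merged and powdered, so that each library holds all subfields in an unknown ratio, and fewer cells of a type and less RNA per cell cannot be told apart. Litter was not in the labels used here.

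In the hippocampal circuit, granule cells of the dentate gyrus send mossy fibres to pyramidal cells of CA3, which project to CA1, while CA2 is a small field between CA3 and CA1 with its own inputs. Each field is recognised in tissue by genes that its principal cells express far more strongly than their neighbours do. In RNA from whole hippocampus such genes act as a gauge of how much of each field a sample holds, because a dissection that loses one end or edge of the structure changes their ratio.

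Library totals ranged from 16488405 to 38213754 reads in genes (median 24125647.5). Slc6a4, the serotonin transporter gene itself, separated the genotype labels without overlap but in the direction opposite to a lost copy, with 0 to 6 reads in the 24 libraries labelled 5-Htt+/+ and 207 to 532 in the 24 labelled 5-Htt+/-. The cause of this direction was not tested, and genotype is given as labelled throughout. The first principal component of 14532 genes took 31.1% of the variance between libraries. With its sign set so that Fibcd1 ran against it, 3 of the 6 libraries at its low end were 5-Htt+/- C. Values without those 6 libraries are given as well for a part of the results. For relations with further lists of hippocampal genes only r was computed without them, so which of these still passed is not known. The genes of the component include markers such as Fibcd1 and Bok, so values without the 6 libraries are no independent check. Their omission also cut 5-Htt+/- C from 7 to 4 libraries, and fewer libraries tend to raise p by themselves.

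The dentate gyrus markers were Prox1, the homeobox transcription factor that maintains granule cell identity, Dsp, which encodes the desmosomal plaque protein desmoplakin, and C1ql2, a secreted C1q-like protein of mossy fibre synapses. In GRCm38 coordinates Prox1 lies on the minus strand at chr1:190118035-190170714, Dsp on the plus strand at chr13:38151328-38198577 and C1ql2 on the plus strand at chr1:120340582-120343174. The antisense gene Prox1os overlaps the span of Prox1 (median 158 reads a library). How reads from any shared stretch were counted is not known, since the sources used here do not state whether counting used strand. The RefSeq promoter windows of these 3 genes are shown because their levels moved together between libraries, and those of the CA3 pair Bok and Iyd because theirs did not. Each window runs from 250 bases before to 50 bases after the annotated start in GRCm38.p6, 5′ to 3′ on the gene's strand, with capitals marking E-box letters (CANNTG, the same on both strands, overlapping matches merged).
Prox1: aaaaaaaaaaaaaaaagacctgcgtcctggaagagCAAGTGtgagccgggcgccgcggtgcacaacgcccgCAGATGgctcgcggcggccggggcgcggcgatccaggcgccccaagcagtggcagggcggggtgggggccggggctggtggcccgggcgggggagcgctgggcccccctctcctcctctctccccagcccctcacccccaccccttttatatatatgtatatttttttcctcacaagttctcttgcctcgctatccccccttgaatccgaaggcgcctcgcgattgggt
Dsp: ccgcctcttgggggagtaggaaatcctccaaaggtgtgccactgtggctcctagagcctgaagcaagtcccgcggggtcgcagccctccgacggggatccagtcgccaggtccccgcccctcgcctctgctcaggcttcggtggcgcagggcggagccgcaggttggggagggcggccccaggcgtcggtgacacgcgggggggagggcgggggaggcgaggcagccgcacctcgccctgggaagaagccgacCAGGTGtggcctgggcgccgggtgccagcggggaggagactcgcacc
C1ql2: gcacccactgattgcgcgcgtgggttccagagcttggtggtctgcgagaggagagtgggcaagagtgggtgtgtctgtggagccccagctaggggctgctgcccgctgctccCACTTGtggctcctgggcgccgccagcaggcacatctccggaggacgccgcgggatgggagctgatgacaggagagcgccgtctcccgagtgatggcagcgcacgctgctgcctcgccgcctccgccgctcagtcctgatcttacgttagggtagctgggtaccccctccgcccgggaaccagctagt
Bok: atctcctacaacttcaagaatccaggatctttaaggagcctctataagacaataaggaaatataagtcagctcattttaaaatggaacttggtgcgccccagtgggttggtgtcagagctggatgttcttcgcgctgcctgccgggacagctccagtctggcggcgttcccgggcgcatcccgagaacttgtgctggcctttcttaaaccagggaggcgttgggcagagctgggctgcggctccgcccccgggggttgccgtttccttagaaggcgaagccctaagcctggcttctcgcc
Iyd: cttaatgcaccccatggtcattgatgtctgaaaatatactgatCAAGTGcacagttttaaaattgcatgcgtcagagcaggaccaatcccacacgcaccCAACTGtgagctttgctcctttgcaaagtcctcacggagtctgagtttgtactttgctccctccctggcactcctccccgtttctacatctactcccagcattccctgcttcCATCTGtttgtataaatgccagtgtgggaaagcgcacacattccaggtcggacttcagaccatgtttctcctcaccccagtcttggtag
The window of Prox1 (chr1:190170778-190171077) held 2 E-boxes, at 215 and 179 bases before the start, that of C1ql2 (chr1:120340332-120340631) held 1 and that of Dsp (chr13:38151044-38151343) held 1 that lies just after the start. The Iyd window (chr10:3540024-3540323) held 3 and the Bok window (chr1:93685325-93685624) none. E-box letters stood in 72.3% of the 32851 mouse promoter windows of the same length, so their presence does not set these genes apart. TATAAA, searched on both strands and not in capitals, occurred in Prox1 and Iyd and in 13.6% of all windows. The Prox1, Dsp and C1ql2 windows were rich in G and C (64.3%, 73.0% and 67.3%) and held 25, 27 and 23 CG pairs, against 56.3% with 16 pairs in Bok and 49.0% with 6 pairs in Iyd. Prox1 has a further annotated start, whose window held neither motif. Of the 9 genes, 8 had a window; Rgs14 did not.

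Levels are given in CPM (read counts relative to the library size) after upper quartile scaling. Prox1 ranged from 68.9 CPM in a 5-Htt+/- C library to 132 CPM in a 5-Htt+/+ SU library, with a median of 102 CPM over the 48 libraries. Its group medians lay between 97.4 CPM (5-Htt+/+ SA) and 110.0 CPM (5-Htt+/+ SU), and the ranges of all 6 groups overlapped. Dsp ranged from 29.4 to 74.2 CPM (median 54.7) and C1ql2 from 19.4 to 48.9 CPM (median 33.4). For both of these genes the lowest and the highest library were the same 2 animals, both of the 5-Htt+/+ C group, so the widest contrast in these 2 genes lay between animals of one genotype label without prenatal stress.

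**Figure D1:**
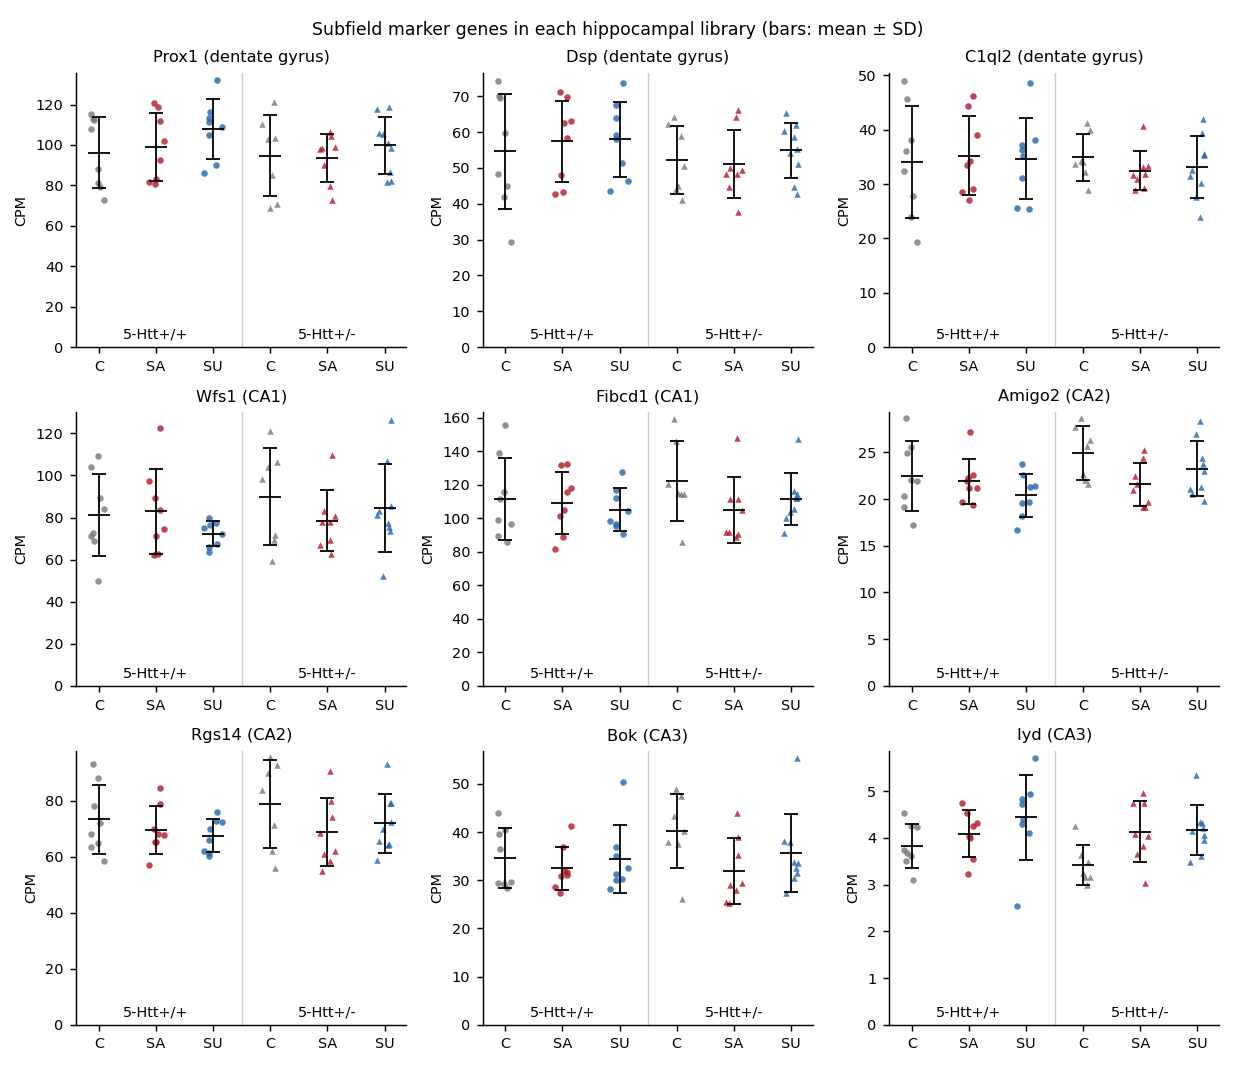
CPM (vertical axes, linear from 0) of the 9 marker genes in each library, by condition, with 5-Htt+/+ libraries as circles on the left of each panel and 5-Htt+/- libraries as triangles on the right; bars give the mean ± SD of each group. The groups overlap in every panel, and Dsp and C1ql2 span their whole range within 5-Htt+/+ C.

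The CA1 markers were Wfs1, encoding the endoplasmic reticulum membrane protein wolframin (minus strand, chr5:36966104-36989205), and Fibcd1, encoding a membrane receptor with a fibrinogen domain (minus strand, chr2:31813290-31846005). Wfs1 ranged from 49.8 CPM in a 5-Htt+/+ C library to 126 CPM in a 5-Htt+/- SU library (median 77.3), a ratio of highest to lowest library of 2.53-fold that only C1ql2 and Dsp came near. Within 5-Htt+/+ SU its 8 libraries kept to 63.8 to 79.9 CPM, whereas within 5-Htt+/+ C they spread from 49.8 to 109 CPM. Fibcd1 ranged from 81.6 to 159 CPM (median 111), lowest in a 5-Htt+/+ SA and highest in a 5-Htt+/- C library.

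The CA2 markers were Amigo2, a cell surface adhesion protein (minus strand, chr15:97244074-97247287), and Rgs14, a regulator of G protein signalling (plus strand, chr13:55369732-55384687). Amigo2 ranged from 16.7 to 28.7 CPM (median 21.9), the narrowest ratio of the 9 genes at 1.72-fold, and Rgs14 from 54.9 to 95.8 CPM (median 69.3). The span of Amigo2 overlaps Pced1b on the other strand (median 174 reads a library), and how reads from any shared stretch were counted is again not known.

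The CA3 markers were Bok, a pro-apoptotic member of the BCL2 family (plus strand, chr1:93685660-93695764), and Iyd, encoding iodotyrosine deiodinase, which salvages iodide from iodinated tyrosines (plus strand, chr10:3540240-3554877). Bok ranged from 25.4 to 55.3 CPM (median 32.6). Iyd was the faintest gene of the set, from 2.55 to 5.70 CPM (median 4.07), resting on 59 to 160 reads a library, while the least counted library of any other marker had 357 reads. Its relative counting error is accordingly the highest of the 9.

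Compared per length of exon, as RPKM (reads scaled by exon length and by library size, mean ± SD, n = 48), Fibcd1 stood at 23.3 ± 4.05, Wfs1 at 21.5 ± 4.77, Bok at 18.9 ± 3.79, C1ql2 at 17.0 ± 3.27 and Rgs14 at 16.9 ± 2.63. Each of these levels lay within 1 SD of the next in order, so that their order is not fixed beyond the spread between libraries. Prox1 (11.8 ± 1.88), Amigo2 (7.08 ± 0.948), Dsp (5.67 ± 1.11) and Iyd (2.48 ± 0.402) followed, each separated from its neighbour by more than either SD. Markers of one field could thus differ widely in level, as Bok and Iyd did in CA3 and C1ql2 and Dsp in the dentate gyrus.

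The markers of SA and SU animals were set against those of C animals with the same genotype label, to ask whether prenatal stress or sociability went with a shift in any subfield marker. With edgeR's quasi-likelihood test, adjusted over 31208 genes by Benjamini-Hochberg, none of the 9 markers passed an adjusted p of 0.05 in any of 9 contrasts. edgeR's likelihood ratio test and DESeq2 also called 0 of 9 in each of them. In 5-Htt+/+ offspring no marker reached an unadjusted p below 0.05 either, in SA against C (adjusted background 0.0128% of all genes, unadjusted 3.07%) or in SU against C (0.0192% and 3.37%). The largest differences there were 0.20 for Iyd and -0.17 for Wfs1, both as log2 fold changes of SU against C.

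In 5-Htt+/- offspring 3 of the 9 markers reached an unadjusted p below 0.05 in SA against C, where 12.1% of all genes did so and 0.0288% were called after adjustment. Bok stood at 26.2 (lowest), 40.3 (median) and 48.9 CPM (highest) in the 7 C libraries and at 25.4, 29.2 and 44.0 CPM in the 8 SA libraries. The ranges overlapped almost entirely, but 6 of the 8 SA libraries lay below all C libraries except the lowest. Its log2 fold change was -0.33 (95% confidence interval -0.60 to -0.07, edgeR adjusted p = 0.355).

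Amigo2 stood at 21.6, 25.7 and 28.7 CPM in 5-Htt+/- C and at 19.2, 21.3 and 25.2 CPM in 5-Htt+/- SA, a log2 fold change of -0.21 (interval -0.39 to -0.03, adjusted p = 0.364). Iyd, the other CA3 marker, differed in the direction opposite to Bok, at 3.00, 3.24 and 4.24 CPM in C and 3.03, 4.06 and 4.96 CPM in SA. Its log2 fold change was 0.28 (interval 0.05 to 0.50, edgeR adjusted p = 0.362). The 2 markers of CA3 therefore gave no common direction for that field.

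The remaining 6 markers had log2 fold changes in SA against C of 5-Htt+/- animals between -0.22 (Fibcd1) and -0.02 (Prox1), and 8 of 9 were below 0 (median of the 9 -0.20, of all genes -0.01). In SU against C of the same genotype, Iyd alone had an unadjusted p below 0.05 (log2 fold change 0.28, adjusted p = 0.242), against 15.5% of all genes and 0.016% after adjustment. Bok was at -0.18 and Amigo2 at -0.11 there. Both contrasts share the 7 C libraries, 3 of which are among the 6 libraries at the low end of the first component. Without those 6, no marker reached an unadjusted p below 0.05 in either contrast, with Bok at -0.23 (adjusted p = 0.975), Amigo2 at -0.17 (adjusted p = 0.962) and Iyd at 0.24 (adjusted p = 0.938) in SA against C. With 4 in place of 7 C libraries, the loss of such p-values does not test these differences.

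**Figure D2:**
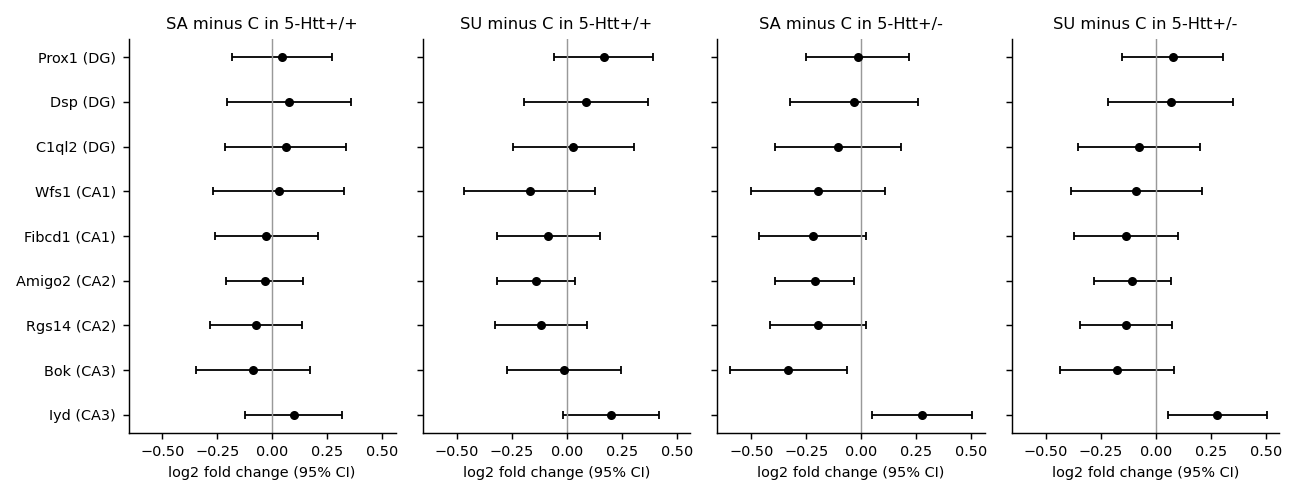
Log2 fold change (horizontal axes) of the 9 marker genes in the 4 comparisons of stressed with control offspring; points give the edgeR estimate and bars its 95% confidence interval. Intervals that leave out 0 belong to Bok, Amigo2 and Iyd in SA against C of 5-Htt+/- animals and to Iyd in SU against C, and none of them passed adjustment over all genes.

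SA was also set against SU within each genotype label. No marker reached an unadjusted p below 0.05 in 5-Htt+/+ animals, where 3.9% of all genes did and 0% passed adjustment, or in 5-Htt+/- animals, where 3.79% did and 0% passed. All 9 log2 fold changes of SA against SU were below 0 in 5-Htt+/- animals, from -0.15 (Bok) to -0.0030 (Iyd), though Iyd was above 0 with TMM or relative log expression scaling. In 5-Htt+/+ animals 5 were above and 4 below 0. The three-way contrast, the difference between these differences (SA against SU in 5-Htt+/+ minus the same in 5-Htt+/-), likewise gave no marker with an unadjusted p below 0.05 (3.7% of all genes, 0% after adjustment). Its largest value was that of Wfs1, 0.31, with an interval of -0.11 to 0.72 that includes 0.

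Over all conditions, libraries labelled 5-Htt+/- differed from those labelled 5-Htt+/+ most in Amigo2, which was higher by 0.11 on the log2 scale (interval 0.01 to 0.21, adjusted p = 0.926). It was the only marker with an unadjusted p below 0.05, against 5.01% of all genes and 0.0224% after adjustment. Slc6a4 reads separated these labels in the direction opposite to a lost copy, as given above, and the cause was not tested. Amigo2 was also at 0.11 without the 6 libraries at the low end of the first component, and no marker then had an unadjusted p below 0.05. PS against C over both genotypes gave 3 markers with an unadjusted p below 0.05, against 12.9% of all genes and 0.0385% after adjustment. Iyd was higher (0.21, interval 0.08 to 0.35, adjusted p = 0.297), Amigo2 lower (-0.12, adjusted p = 0.346) and Rgs14 lower (-0.13, adjusted p = 0.385). Without the 6 libraries at the low end of the first component Iyd was at 0.20 (adjusted p = 0.846), still with an unadjusted p below 0.05, Amigo2 was at -0.09 and Rgs14 at -0.01.

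Other genes of each field, outside the 9, were examined in the same fit, and none was called in any contrast. They too were chosen with earlier results of these data known. In SA against C of 5-Htt+/- animals, where 12.1% of all genes had an unadjusted p below 0.05, 2 of 6 further CA2 genes did so and both were lower, Cacng5 at -0.35 (adjusted p = 0.330) and Ntf3, a neurotrophin, at -0.27 (adjusted p = 0.362). Of 4 further CA3 genes 2 were higher with an unadjusted p below 0.05, among them Elavl2, a neuronal RNA-binding protein, at 0.25 (adjusted p = 0.397). Further CA2 genes had a median log2 fold change of -0.17 and further CA3 genes one of 0.13, against -0.01 for all genes. In that contrast no further CA1 gene of 5 and no further granule cell gene of 7 reached that level. Without the 6 libraries at the low end of the first component, 5.33% of all genes and none of these 22 further genes reached it, with Cacng5 at -0.21, Ntf3 at -0.23 and Elavl2 at 0.04, and the medians were -0.0041 for CA2 and 0.01 for CA3. All 7 further granule cell genes were higher in SU against C of 5-Htt+/- animals and in PS against C (medians 0.18 and 0.06). There 2 and 3 of them had an unadjusted p below 0.05, against 15.5% and 12.9% of all genes. Without the 6 libraries none of the 7 did in either contrast (medians 0.07 and 0.04), against 7.52% and 5.31% of all genes.

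Of 6 oligodendrocyte markers, 5 were lower with an unadjusted p below 0.05 in SA against C of 5-Htt+/- animals (median log2 fold change of the 6 -0.27) and 5 in SU against C (median -0.32), against 12.1% and 15.5% of all genes in either direction. None was called. Their summed level was 2156 to 3779 CPM in C (median 2714), 1864 to 2832 CPM in SA (median 2261) and 1879 to 2427 CPM in SU (median 2183). Without the same 6 libraries 1 of 6 and 3 of 6 had such a p (medians -0.11 and -0.20), against 5.33% and 7.52% of all genes. The part of these levels in the values of the subfield markers was not tested.

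As a gauge of the tissue in each sample, the mean log2 CPM of the 2 CA1 markers was subtracted from that of the 3 dentate gyrus markers. The balance ran from -1.50 in a 5-Htt+/- C library to 0.00 in a 5-Htt+/+ SU library (median -0.75), a 2.83-fold range of the ratio between the 2 sets of markers. Within single groups it spanned between 0.70 (5-Htt+/+ SA) and 1.29 (5-Htt+/+ C) on the log2 scale. Group means lay between -0.90 ± 0.35 (SD, 5-Htt+/- C, n = 7) and -0.55 ± 0.31 (5-Htt+/+ SU, n = 8). Without the 6 libraries at the low end of the first component, 3 of them 5-Htt+/- C, that group had a mean of -0.66 ± 0.17 (n = 4) and the lowest mean was -0.75 ± 0.33 (5-Htt+/- SA, n = 8). With all libraries the distance between the group means was about the size of the SD within a group, and every group overlapped every other. The same balance against the CA3 markers ran from 1.62 to 2.64 (median 2.29), with group means from 2.21 ± 0.28 (5-Htt+/- SU) to 2.32 ± 0.26 (5-Htt+/+ SA), and from 2.21 ± 0.30 (5-Htt+/- SU) to 2.32 ± 0.12 (5-Htt+/- C, n = 4) without the 6. Bok and Iyd did not move together between libraries (r = 0.0575). Neither passed with the further CA3 genes (r = -0.0051 for Bok and 0.198 for Iyd). Likeness of these group means therefore does not show that the groups held equal amounts of CA3.

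**Figure D3:**
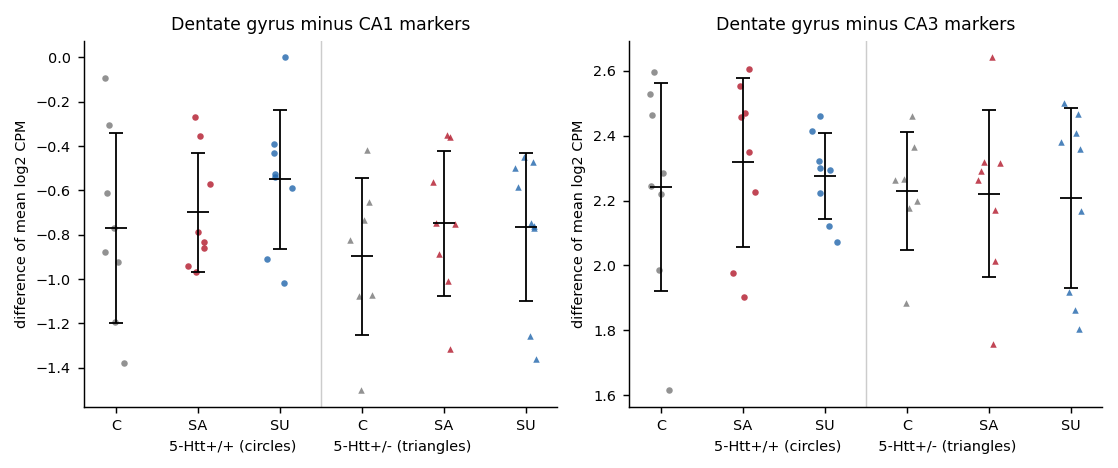
Difference of mean log2 CPM (vertical axes) between the dentate gyrus markers and the CA1 markers (left) or CA3 markers (right) in each library; bars give the mean ± SD. Libraries of one group differ by up to 1.29 on the log2 scale for CA1, more than any 2 group means do. The right panel rests on Bok and Iyd, which did not move together between libraries (r = 0.0575).

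Spread between libraries was wider for these genes than for most genes of like level. After subtraction of group means the SD of log2 CPM ran from 0.18 (Amigo2) to 0.31 (Wfs1). Among genes in the same of 10 equal classes of mean level, 7 of the 9 markers stood in the upper percentiles of SD, led by Wfs1 (98.1) and Dsp (96.8), followed by C1ql2 (95.9), Fibcd1 (94.6), Prox1 (94.4), Bok (94.1) and Rgs14 (90.5). Amigo2 stood at percentile 78.6 and Iyd at 63.0. The median SD in those classes was between 0.12 and 0.20.

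To see whether markers of one field moved together from animal to animal, log2 CPM was correlated over the 48 libraries after subtraction of group means, with p-values from permutations within groups adjusted over the 36 pairs. Of the 36, 9 passed an adjusted p of 0.05, 8 of them positive. Among the 6 pairs within a field 4 passed, and among the 30 pairs across fields 5 passed. With rank correlation 8 pairs passed, not all of them among the 9. Prox1 with C1ql2 and Fibcd1 with Amigo2 (rho = 0.332, adjusted p = 0.106) missed adjustment there, and Amigo2 with Bok passed (rho = 0.431, adjusted p = 0.0211). Prox1 and Dsp gave the highest value (r = 0.754, permutation p = 1e-05, the smallest that the permutations can give, adjusted p = 0.00036, rho = 0.776, rho p = 1e-05), and r was 0.792 without the 2 libraries farthest from the median of Prox1, the first-named gene. It was 0.845 without the 6 libraries at the low end of the first component, 0.831 in libraries labelled 5-Htt+/+ and 0.671 in those labelled 5-Htt+/-.

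Dsp and C1ql2 followed among the dentate gyrus pairs (r = 0.627, permutation p = 9e-05, adjusted p = 0.00108, rho = 0.530, rho p = 0.00057, r = 0.553 without the 2 farthest libraries). For Prox1 and C1ql2 r was 0.436 (permutation p = 0.00414, adjusted p = 0.0213), with rho = 0.383 (p = 0.0131) that missed adjustment at 0.0522, and 0.525 without the 2 farthest. The values with C1ql2 differed between the genotype labels, at 0.775 and 0.254 for Dsp and at 0.662 and 0.0775 for Prox1 in 5-Htt+/+ and 5-Htt+/- libraries, and this difference was not tested. The CA2 pair Amigo2 and Rgs14 passed as well (r = 0.488, permutation p = 0.00107, adjusted p = 0.00642, rho = 0.437, rho p = 0.00447, r = 0.430 without the 2 farthest).

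The other fields did not behave so uniformly. The CA1 pair Wfs1 and Fibcd1 had r = 0.328 (permutation p = 0.0404, adjusted p = 0.0971, rho = 0.285, rho p = 0.0706, r = 0.211 without the 2 farthest), which was 0.0373 without the 6 libraries at the low end of the first component. The CA3 pair Bok and Iyd had r = 0.0575 (permutation p = 0.711, rho = -0.0337, rho p = 0.829, r = 0.00161 without the 2 farthest). Neither pair passed adjustment over the 36.

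Across fields, Fibcd1 moved with Rgs14 (r = 0.630, permutation p = 3e-05, adjusted p = 0.00054, rho = 0.541, rho p = 0.00023, r = 0.591 without the 2 farthest). Bok moved with Rgs14 (r = 0.501, adjusted p = 0.00642) and with C1ql2 (r = 0.490, adjusted p = 0.00387), and Fibcd1 with Amigo2 (r = 0.397, adjusted p = 0.0444), the latter at 0.387 without the 6 libraries at the low end of the first component (adjusted p = 0.0700). The single negative pair was Prox1 with Wfs1 (r = -0.414, permutation p = 0.00913, adjusted p = 0.0411, rho = -0.461, rho p = 0.00331, r = -0.325 without the 2 farthest), which was -0.235 without the 6 libraries at the low end of the first component. Once the first component was removed from every gene, the 3 dentate gyrus pairs and Amigo2 with Rgs14 were the pairs of these 9 that still passed, with r from 0.428 to 0.904. Fibcd1 with Rgs14 then stood at 0.323. A pair of relations across fields that had missed adjustment passed there, Wfs1 with Amigo2 (r = -0.428, adjusted p = 0.0366) and Amigo2 with Iyd (r = 0.424, adjusted p = 0.0270).

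**Figure D4:**
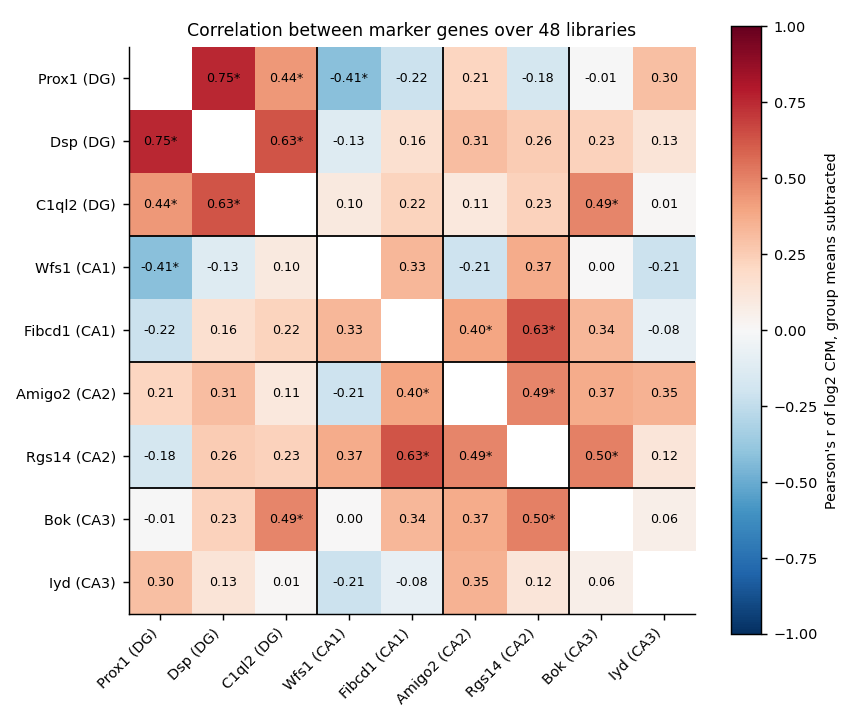
Pearson's r (colour and printed value) between the log2 CPM of each pair of marker genes over 48 libraries after subtraction of group means, ordered by field (black lines); an asterisk marks an adjusted permutation p below 0.05. The dentate gyrus block is positive throughout (0.436 to 0.754), the CA3 block is near 0, and Prox1 with Wfs1 is the negative pair that passed.

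The relation of the first component itself to each marker is given as a description over the 48 libraries. Its correlation with the dentate gyrus markers was 0.359 for Prox1, -0.203 for Dsp and -0.430 for C1ql2. It was -0.692 for Fibcd1 and -0.531 for Wfs1 of CA1, -0.656 for Rgs14 and -0.271 for Amigo2 of CA2, and -0.461 for Bok and 0.200 for Iyd of CA3. Markers of one field thus differed in size, and in the dentate gyrus and CA3 also in sign. The share of mitochondrial reads, 3.43% to 5.95% of a library, correlated at -0.628 with Rgs14, -0.578 with Bok, -0.478 with Fibcd1, -0.451 with C1ql2, -0.358 with Wfs1, -0.265 with Dsp and -0.200 with Amigo2, and at 0.132 with Prox1 and 0.0348 with Iyd. The part of either in the relations between markers was not tested.

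**Figure D5:**
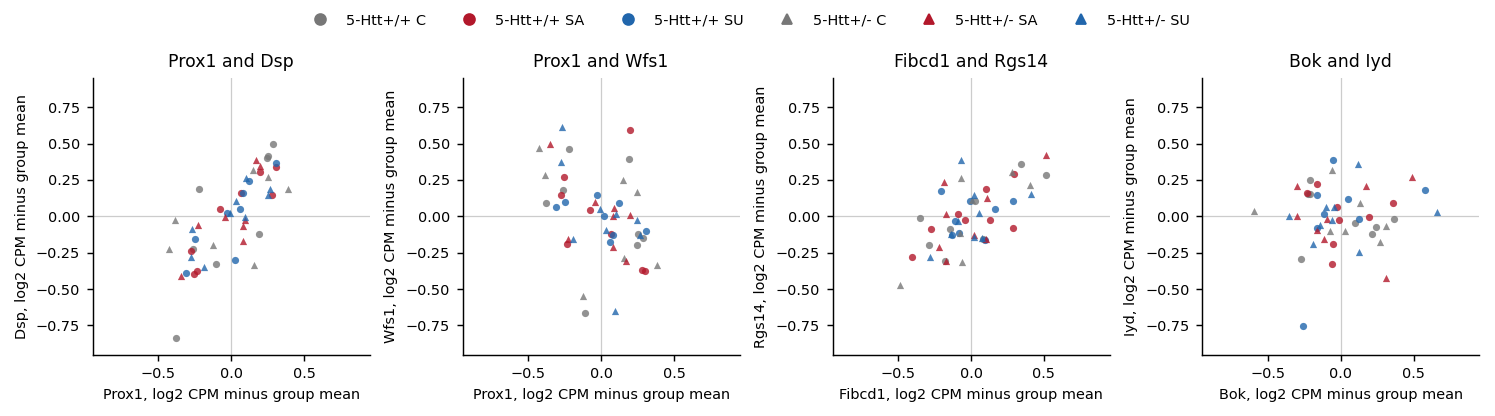
Log2 CPM minus the group mean of 2 markers in each of the 48 libraries, for Prox1 and Dsp, Prox1 and Wfs1, Fibcd1 and Rgs14, and Bok and Iyd; colour gives the condition and shape the genotype label. Points run along a rising line in the first and the third panel (r = 0.754 and 0.630), along a falling one in the second (r = -0.414) and along none in the fourth (r = 0.0575).

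Each marker was then set against the mean log2 CPM of 9 further lists for hippocampal fields, poles and neurons, 80 relations in all once lists that hold the marker were left out, and 20 passed adjustment. The 7 further granule cell genes, among them Calb1 and Trpc6, followed Prox1 (r = 0.877, permutation p = 1e-05, adjusted p = 0.0002, rho = 0.887, rho p = 1e-05), Dsp (r = 0.726) and C1ql2 (r = 0.535). Prox1 and Dsp were also higher with 5 immature neuron genes (r = 0.576 and 0.527), a list that includes Neurod1, a factor granule cells retain. Both were lower where the 5 further CA1 genes were higher (r = -0.386 and -0.406). Prox1 was also higher with the hilar mossy cell genes (r = 0.417), at 0.270 without the 6 libraries. Fibcd1 and Rgs14 were lower where the same genes were higher (r = -0.524 and -0.391), at -0.356 and -0.269 without the 6 libraries.

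Wfs1 followed the further CA1 genes (r = 0.546, adjusted p = 0.000933), and ran against the 4 further CA3 genes (r = -0.722, permutation p = 1e-05, rho = -0.641, rho p = 3e-05, r = -0.663 without the 2 farthest). It also ran against the further granule cell genes (r = -0.397), at -0.263 without the 6 libraries. Fibcd1, the other CA1 marker, did not pass with the further CA1 genes. Amigo2 and Rgs14 both followed the 6 further CA2 genes (r = 0.463 and 0.577). Neither CA3 marker passed with the further CA3 genes, at r = -0.0051 for Bok and 0.198 for Iyd.

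Rgs14, Bok and Fibcd1 were lower where 5 genes of the ventral pole were higher (r = -0.720, -0.577 and -0.507), and Rgs14 and Fibcd1 were higher with 3 genes of the dorsal pole, which include Wfs1 (r = 0.434 and 0.406). The values with the ventral list were -0.660, -0.557 and -0.353 without the 6 libraries at the low end of the first component, and those with the dorsal list 0.312 and 0.157. With that component removed from every gene they were -0.517, -0.413 and -0.115, and 0.137 and 0.0660. The ventral pole list, which includes the serotonin receptor gene Htr2c and the extracellular matrix gene Dcn, summed to 64.3 CPM in its lowest library and a median of 96.2 CPM. These relations were in a family added after a first look at the data.

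Lists for tissue that adjoins the hippocampus or for other cell types were examined in 72 relations, of which 5 passed adjustment. Prox1 was lower where 6 interneuron genes, such as Gad1 and Sst, were higher (r = -0.621, permutation p = 1e-05, adjusted p = 0.00072, rho = -0.613, rho p = 1e-05, r = -0.583 without the 2 farthest). Wfs1 was higher with the same list (r = 0.571, adjusted p = 0.00072) and with 5 striatal genes (r = 0.587, adjusted p = 0.00096), while Amigo2 was lower with the striatal (r = -0.476, adjusted p = 0.0308) and the 6 thalamic genes (r = -0.423, adjusted p = 0.0393). With rank correlation 7 relations passed, the same 5 and those of Prox1 and Dsp with the striatal genes. For Prox1 rho was -0.462 (permutation adjusted p = 0.0308) and for Dsp -0.441 (permutation adjusted p = 0.0373). Without subtraction of group means neither relation of Amigo2 passed (r = -0.364 with the striatal and -0.256 with the thalamic genes). Amigo2 with the thalamic genes was at -0.422 without the 6 libraries at the low end of the first component and no longer passed (adjusted p = 0.0558). A pair of relations that had missed adjustment passed without them. These were Dsp with the interneuron genes (r = -0.421, adjusted p = 0.0446) and Bok with the striatal genes (r = -0.461, adjusted p = 0.0480). In the reported setting, with all 48 libraries, no relation with the lists for habenula, neocortex, choroid plexus, oligodendrocytes or astrocytes passed. With the first component removed, Fibcd1 with the neocortical (r = -0.416) and Iyd with the habenular genes (r = -0.393) did. Without subtraction of group means, C1ql2 with the astrocyte genes did (r = 0.436).

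The striatal list was sparse, summing to between 19.6 and 46.7 CPM, of which Rgs9 alone took 14.6 to 25.9 CPM, whereas Gpr6 reached at most 1.12 CPM and Adora2a 3.41 CPM. The interneuron list summed to 468 to 588 CPM and the thalamic list to 37.3 to 71.8 CPM. Group ranges of these sums overlapped, and no gene of these lists was called in any contrast. Choroid plexus genes summed to between 24.9 and 912 CPM, without a relation to any subfield marker that passed. Whether neighbouring tissue had a part in the spread of the markers was not tested.

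The genes whose pattern over the 48 libraries was most like that of each marker were taken as the 3 of highest r among genes with a mean of at least 5 CPM, as a description without a test. For Prox1 they were Ahcyl2 (r = 0.881), Sema5a (0.874) and Neurod1 (0.848), and for Dsp Pdzd2 (0.880), Npnt (0.869) and Lct (0.827). C1ql2 had Pcdh8 (0.830), the immediate early gene Jun (0.814) and Sipa1l2 (0.808). Wfs1 was closest to Mpped1 (0.757), which is itself on the list of further CA1 genes, Tyro3 (0.742) and Ptprm (0.726), and Fibcd1 to Orai3 (0.802), Slc24a3 (0.791) and Sept9 (0.788).

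Amigo2 had lower values, with Wipf3 (0.672), Syndig1 (0.665) and Parp1 (0.662). For Rgs14 they included Sepw1 (0.831) and Gm38336 (0.817), and Bok was closest to Homer3 (0.822), a postsynaptic scaffold protein, Fgfr1 (0.767) and Wscd1 (0.763). For Iyd no gene of the table exceeded 0.514 (Mir3064), followed by 1110037F02Rik (0.499) and Ryr2 (0.496). The most weakly counted marker was thus also the one without close companions in these libraries.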

How the data were processed

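RNA of 48 hippocampi was sequenced as single 50-base reads. The authors deposited whole-number counts per gene; STAR, HTSeq and DESeq2 on GRCm38.p5 are listed in the submitters' processing notes, without versions or a strand setting, while the paper's methods name Salmon in place of HTSeq. The 9 genes and all lists were chosen with earlier results of these data known. Genes with at least 5 reads in 3 libraries (31208) were fitted with edgeR 4.0.16 in R 4.3.3 (upper quartile scaling, quasi-likelihood test, 6 groups, Benjamini-Hochberg). Log2 CPM used a prior count of 2. Correlations used 100000 permutations within groups, and the text names the 9 markers, the 3 genes most like each (1 of them is not reported here) and the list genes of smallest p. Exon lengths for RPKM came from GENCODE for GRCm38. Both procedures were tested on simulated data. Replicate numbers did not pair the libraries: 37 of 115 same-numbered pairs correlated above 0.1 (median 0.027). Of differently numbered pairs 263 of 844 correlated above 0.1 (median -0.0048). Alternatives were DESeq2 1.42.0, other tests, scalings and filters, single groups and omitted libraries. Depth limits precision, and p-values measure the spread between these animals. The number of litters was not analysed here. The paper used at most 2 female pups of each genotype from a litter, so littermates may be among these animals. The tests counted each animal as independent.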

Additional observations from a re-analysis of the deposited data

Results flagged for a closer look

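In 8 of the 54 combinations of a marker and a group, 1 library lay far from the others of its group by Dixon's criterion, which chance alone meets in about 1 in 20. All 8 were high. In 5-Htt+/- SA they were C1ql2 in replicate 5 (40.6 CPM, next library 33.3), Wfs1 in replicate 7 (110 CPM, next 83.0) and Fibcd1 in replicate 2 (148 CPM, next 112). In 5-Htt+/- SU they were Fibcd1 in replicate 8 (147 CPM, next 116), Bok in replicate 5 (55.3 CPM, next 38.2) and Iyd in replicate 6 (5.33 CPM, next 4.34). In 5-Htt+/+ animals they were Amigo2 in SA replicate 6 (27.1 CPM, next 22.6) and Bok in SU replicate 3 (50.3 CPM, next 36.9). Bok thus had such a library in SU of both genotype labels, 1 animal each.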

How the results depend on the processing

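Across 48 omissions of a single library and all other alternatives, the number of markers that passed in each of the 9 contrasts was 0, as in the reported fit. With the replicate block it was 0 in each as well, and 5 of 9 markers had an unadjusted p below 0.05 in SA against C of 5-Htt+/- animals, against 3 without it. Of all 31208 genes 4413 had such a p there with the block, against 3786 without it. Over all genes, SU against C of 5-Htt+/- animals gave 5 calls, against 240 with DESeq2 and 88 with the likelihood ratio test. Omitting 1 library left Bok between -0.41 and -0.28 and Iyd between 0.23 and 0.35 in SA against C of 5-Htt+/- animals, and Iyd between 0.19 and 0.25 in PS against C.

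Of the log2 fold changes, none of them called, 39 changed sign. Iyd in SA against SU of 5-Htt+/- animals became 0.00909 with TMM scaling, 0.00684 with relative log expression scaling, 0.00413 with at least 10 reads in 7 libraries, 0.00194 with only the 2 groups compared and 0.00492 with DESeq2. The others arose under 2 alternatives chosen after seeing the data. Without the 6 libraries at the low end of the first component, Fibcd1 was at 0.0162 in SA and 0.00232 in SU against C of 5-Htt+/+ animals, with Bok at 0.0261 in the latter. Wfs1 and Rgs14 were then at 0.0691 and 0.00691 in SA against C and at 0.0829 and 0.0474 in SU against C of 5-Htt+/- animals, with Prox1 at -0.0425 in the latter. Dsp was at 0.0215 and C1ql2 at -0.0201 in SA against SU of 5-Htt+/+ animals, Prox1 at 0.0386 and C1ql2 at -0.00323 in the three-way contrast, Rgs14 at -0.00316 between genotypes, and Prox1 at -0.00474 and Wfs1 at 0.0354 in PS against C. With the first component as a term, Fibcd1 was at 0.00545 in SA and 0.0128 in SU against C of 5-Htt+/+ animals, with Bok at 0.0536 in the latter. In 5-Htt+/- animals Dsp, C1ql2 and Wfs1 were at 0.0286, 0.0256 and 0.000899 in SA against C, and Prox1, C1ql2, Wfs1, Fibcd1 and Rgs14 at -0.00172, 0.0405, 0.0727, 0.0368 and 0.0181 in SU against C. C1ql2, Fibcd1 and Rgs14 were at -0.0126, -0.00739 and -0.00715 in SA against SU of 5-Htt+/+ animals, Prox1 at 0.00627 in the three-way contrast, Fibcd1 at -0.00851 between genotypes, and C1ql2, Wfs1 and Fibcd1 at 0.0643, 0.00904 and 0.00606 in PS against C. The cause was not tested.

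The mean balance of dentate gyrus and CA1 markers was -0.0341 as a log2 ratio of summed CPM, against -0.74 as reported. The sum runs over 3 dentate gyrus and 2 CA1 markers, whereas the reported balance is a difference of means. The 2 values are therefore unlike measures, and their distance is not a change in the balance itself. Pairs of markers that passed numbered 14 without subtraction of group means, against 9, and relations with neighbouring tissue 15 with the first component removed (an alternative chosen after seeing the data), against 5. Fibcd1 with Amigo2 did not pass with TMM scaling (r = 0.354). Depth limits Iyd most, at 59 to 160 reads a library.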
